A study of Mus musculus with 20 samples.

Results

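Liver RNA of C3HeB/FeJ mice (C3H, 4 mice), a strain the series names as susceptible to diabetes, was set against liver RNA of C57BL/6 mice (B6, 4 mice), which it names as lean and resistant. These 8 arrays are 8 of the 20 in the series and were chosen by their strain label alone. Every mouse was male and was given the same high fat diet with 45% fat, and no animal without the diet was analysed here, so each difference is one between strains under that diet. Tissue was collected at week 6, which the descriptions allow to be read as age or as time on the diet. Each array carries its own animal number, read as 1 mouse per array. A second resistant strain, 129P2/OlaHsd (129Ola, 4 mice), was set beside both, because the C3H and 129Ola arrays were read with a later version of the image software than the B6 arrays. The mice are called by strain and animal number.

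The liver makes cholesterol from acetyl-CoA through the mevalonate pathway, whose genes rise together when the transcription factor SREBP2 is released from the endoplasmic reticulum. The related SREBP1 drives the enzymes that build and desaturate fatty acids, and insulin raises it. Inbred strains also differ by fixed alleles, among them the haplotype of the major histocompatibility complex, which is k in C3H and b in B6 and 129Ola. An array probe reads 1 short stretch of a transcript, so a strain difference at 1 probe can come from the amount of RNA, from a splice form or from the sequence under the probe. These were not told apart here, because probe sequences were not compared with the strains' genomes. In whole liver, fewer cells of a type and less RNA per cell cannot be told apart either.

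Of 55642 probes, 27288 were well above background on all 4 arrays of C3H or all 4 of B6, and they stood for 19853 genes, with the brightest probe speaking for each gene. C3H arrays had 43.3 to 46.9% of probes well above background and B6 arrays 51.9 to 59.1%, a difference of -8.96 percentage points (two-sided exact permutation test, p = 0.0286, the smallest that 4 against 4 allows). In 129Ola the share was 40.0 to 43.4%. The mean net signal of the negative control spots was 26.7 to 28.6 in C3H, 22.6 to 25.8 in 129Ola and 13.4 to 13.6 in B6. Arrays of a strain correlated at 0.983 or more across genes in C3H, B6 and 129Ola. All C3H arrays lay on 1 slide, and no slide or scan day held both C3H and B6, so strain cannot be told apart from slide, scan day or software version in C3H against B6. C3H and 129Ola shared the software version but neither slide nor scan day. One mouse, B6 15, stood above the other B6 mice in genes of antigen presentation, and the class II genes named are given with and without it. The hepatocyte markers were among the brightest in every strain, with a mean log2 level of 9.49 ± 0.03 in C3H and 9.33 ± 0.08 in B6 (SD, n = 4 mice).

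C3H and B6 differed in 7444 of 19853 genes (37.5%) at an adjusted p of 0.05 (limma, Benjamini-Hochberg), with 4176 (21.0%) higher in C3H and 3268 (16.5%) lower. Among larger differences the balance was the other way, with 793 genes (3.99%) at least 2-fold higher and 1271 (6.4%) at least 2-fold lower. The filter was uneven, since 26805 probes were above background on all B6 arrays, 23071 on all C3H arrays and 22588 on both. More probes thus entered through B6 alone than through C3H alone, and probes detected only in 129Ola could not enter. The part of the filter in the 2-fold balance was not tested. The C3H and B6 mice did not overlap for 26.4% of genes on the higher side and 18.1% on the lower. 129Ola differed from B6 in 52.3% of genes (6533 higher, 32.9%, and 3848 lower, 19.4%, with 4.38% and 10.3% of all genes past 2-fold), and C3H from 129Ola in 39.0% (3110 higher, 15.7%, and 4631 lower, 23.3%, with 9.0% and 3.65% by at least 2-fold). The 3 comparisons share mice, so their values stand side by side and not as independent tests. The direction split followed the scaling. When the 75th percentile was taken over the probes that all 20 arrays detected, the median C3H minus B6 difference over all genes moved by -0.11, from 0.09 to -0.02, and gave 3055 higher and 4316 lower. With slide as a random block the counts were 2119 and 1651. All levels below are log2 signals relative to the 75th percentile of the same array, and all differences are log2 differences, C3H minus B6 unless another pair is named, ± SE with 4 mice per strain.

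Several of the largest differences were between a clear signal in 1 strain and none or little in the other, and the probes that read them are shown because the result rests on these stretches alone. The first 30 bases of each 60-base probe follow, 5′ to 3′ as the array files give them, with the mm9 coordinates of those bases.
Cacng2, chr15:77825320-77825349, minus strand: ccacaggctatgcggggggaaaatataacc
H2-Aa, chr17:34421315-34421344, minus strand: tttggccaattggcaagctttgacccccaa
H2-D1, chr17:35403886-35403915, plus strand: cagttctctttacacaacattgtctgatgt
Folr2, chr7:108988801-108988830, minus strand: gtttgactcaacccagggcaatcccaatga
Hsd17b13, transcript variant 1, chr5:104392822-104392851, minus strand: agtcgtatacagaacattcaatttgaagca
Hsd17b13, transcript variant 2, chr5:104384731-104384760, minus strand: tacccatgccttggtatatgagtatctgtg
The pair of Hsd17b13 probes lies on 1 strand of 1 gene, and they moved in opposite directions.

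Cacng2, a subunit that helps traffic AMPA receptors in neurons, was among the genes higher in C3H than in every mouse of both resistant strains. Its levels were 4.09, 2.95, 3.95 and 3.92 in C3H 1, 2, 3 and 5, and -5.45, -5.41, -3.97 and -4.93 in B6 9, 10, 11 and 15. The C3H mice lay far above every B6 mouse, a difference of 8.67 ± 0.48 (adjusted p = 3.9e-10), although 1 of 4 B6 arrays read the probe above background. In 129Ola no array did, and C3H was at least 89.3-fold higher than 129Ola. Nuggc, a nuclear GTPase known from germinal centre B cells, had levels of 1.93 to 2.72 in C3H and was not well above background in any B6 mouse. It was at least 100.8-fold higher in C3H than in B6 (adjusted p = 5.82e-14) and 1.76 ± 0.21 higher than in 129Ola, whose 4 mice also read it. A bound of this kind sets the bright strain's mean against the lowest signal that passed the background test on the dim strain's arrays, and it holds for the processed signal alone. Here and below, a gene with a bound between C3H and B6 passed the filter only through the bright strain. So did a gene, Cacng2 among them, read above background on fewer than 4 arrays of C3H or of B6. The adjusted p of either kind rests on dim-strain levels wholly or partly below background. It is no separate support for the difference, and the size and SE rest on the same levels. With the normexp background correction, which adds an offset to every signal, 55 of the 135 named genes that passed had a log2 difference smaller by over 1.5 times, and 53 of the 55 still passed. Cacng2 then differed by 4.48, H2-Aa by -2.48 and Corin by 0.86, while H2-D1 kept -4.94.

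Tmc5, a transmembrane channel-like gene, was 6.06 ± 0.45 higher in C3H, and Poln, a DNA polymerase, 5.32 ± 0.25, each with 1 of 4 B6 arrays above background. Mab21l4 was at least 13.8-fold higher than in B6. Corin, the serine protease that activates atrial natriuretic peptide, was at least 8.58-fold higher, with levels of -1.77 to -0.76 in C3H. For Kcnk1, a leak potassium channel, the bound was 16.2-fold and for Pianp 7.66-fold. None of these 4 was well above background in any B6 or 129Ola mouse. Mice of DBA, another strain of the series, read Tmc5 at 0.20 to 0.73, Poln at 0.77 to 1.26, Corin at 0.28 to 0.52 and Pianp at -1.30 to -0.91. The C3H mice thus did not stand above the DBA mice as a group for these genes. For Mab21l4 and Kcnk1 the DBA mice read -6.07 to -4.37 and -3.99 to -2.98, below every C3H mouse.

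On the lower side, H2-Aa, the alpha chain of the class II molecule I-A, had levels of 0.93 to 2.48 in B6 and 2.08 to 2.74 in 129Ola and was not well above background in any C3H mouse. It was at least 31.2-fold lower in C3H than in B6 (adjusted p = 1.53e-09) and at least 62.8-fold lower than in 129Ola. Without B6 15, whose level of 2.48 stood above the other B6 mice at 0.93 to 1.05, the bound against B6 was 24.1-fold. H2-D1, a class I heavy chain, was read on all arrays. Its levels were 2.34, 2.02, 1.91 and 2.06 in C3H 1, 2, 3 and 5 and 6.91, 6.76, 6.98 and 7.46 in B6 9, 10, 11 and 15, a fall of 4.94 ± 0.15 with no overlap (adjusted p = 1.15e-13), or of 4.80 ± 0.14 without B6 15. Both genes lie in the complex on chromosome 17, where the C3H haplotype differs. Folr2, a folate receptor of resident macrophages, was read on all arrays at -1.32, -2.14, -1.94 and -2.02 in C3H 1, 2, 3 and 5 and at 2.47 to 2.78 in B6, a fall of 4.47 ± 0.17. In 129Ola it was 2.17 to 2.80, and 129Ola minus B6 was -0.17 (adjusted p = 0.42). The low level was shared with DBA, whose mice read Folr2 at -2.40 to -2.24, while NZO mice, of a further strain, read 2.66 to 3.03. Cd300ld, a receptor of myeloid cells, fell by 4.39 ± 0.13, with 3 of 4 C3H arrays above background, and 129Ola minus B6 was -0.27 (adjusted p = 0.0773).

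Olfr1033, an olfactory receptor gene, was at least 8.68-fold lower in C3H than in B6 and at least 16.5-fold lower than in 129Ola. Leo1, a subunit of the PAF1 transcription elongation complex, fell by 4.41 ± 0.20, with 3 of 4 C3H arrays above background. Ccdc30 was at least 7.58-fold lower by its brightest probe. Another probe was at least 3.70-fold lower, and the last, read on all C3H and B6 arrays, differed by -0.50 (adjusted p = 0.432 over all probes). Tmc7 was at least 12.2-fold lower by its brighter probe, while the other was 1.85 ± 0.49 higher in C3H (adjusted p = 0.00675).

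Hsd17b13, an enzyme of the lipid droplet surface in hepatocytes, gave the widest split between probes of a gene. The probe for transcript variant 1 read 0.92, 1.24, 1.05 and 0.84 in C3H 1, 2, 3 and 5 and 5.20 to 5.65 in B6, a fall of 4.35 ± 0.14 (adjusted p = 1.88e-13 over all probes). The probe for variant 2 read 3.04, 3.28, 3.29 and 2.82 in the same C3H mice and -3.41 to -2.53 in B6, a rise of 6.09 ± 0.33 (adjusted p = 2.64e-10). In 129Ola the variant 1 probe was 0.91 higher than in B6 (adjusted p = 4.3e-05), and the variant 2 probe differed by 0.68 (adjusted p = 0.0992). NZO and DBA mice read 5.29 to 5.97 on the variant 1 probe. On the variant 2 probe DBA mice read -3.32 to -2.48, and no NZO array was well above background. C3H was thus the strain out of 5 whose mice stood apart on both probes. Of 1218 genes with more than 1 probe past the threshold, 235 had probes called in both directions, but 5 had one beyond 1.5 and another beyond -1.5. Besides Hsd17b13 and Tmc7 these were an unnamed chromosome 3 transcript, Arsk and Rbm45 (-2.42 and 2.88). One Arsk probe was at least 4.14-fold lower in C3H and 2.60-fold lower in 129Ola, with no array of either above background, and the other was 2.18 and 2.77 higher. For Rbm45 the 129Ola minus B6 values were -3.06, with 2 of 4 129Ola arrays above background, and 2.73.

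A second set of large differences was shared with 129Ola, so B6 stood alone among the 3 strains, except for Moxd1 below. Ifi202b, a DNA-sensing protein of the interferon-induced HIN family, had levels of -0.03 to 0.91 in C3H and 0.30 to 0.59 in 129Ola and was not well above background in any B6 mouse. It was at least 25.6-fold higher in C3H and at least 26.7-fold higher in 129Ola (adjusted p = 3.57e-15 and 2.45e-15). Pde6h, a phosphodiesterase subunit of cone photoreceptors, was at least 28.5-fold higher in C3H and 48.8-fold in 129Ola. Crym, a thyroid hormone-binding crystallin read on all arrays, was 5.31 ± 0.19 higher in C3H and 5.51 ± 0.19 in 129Ola. For Elobl these differences were 4.98 and 5.02, with 1 of 4 B6 arrays above background, so their size rests on B6 levels near background.

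Cebpe, a transcription factor of granulocyte maturation, read 2.64 to 3.20 in B6 and was not well above background in any C3H or 129Ola mouse. It was at least 87.2-fold lower in C3H and at least 54.8-fold lower in 129Ola. Zfp874a, a zinc finger gene, was at least 31.5-fold lower in C3H and 19.8-fold in 129Ola. Clec2h, a C-type lectin, fell by 6.05 ± 0.65 in C3H and by 6.15 in 129Ola, where 1 of 4 arrays of each strain was above background. Moxd1, a monooxygenase known to be higher in male liver, was at least 33.5-fold lower in C3H (adjusted p = 0.00114). Its 129Ola levels spread from -5.02 to 1.29, with 2 of 4 arrays above background. They overlapped the B6 range of -0.06 to 2.46, so B6 did not stand alone for Moxd1. Probes of this kind cannot be ranked, since a level below background has no order.

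**Figure D1:**
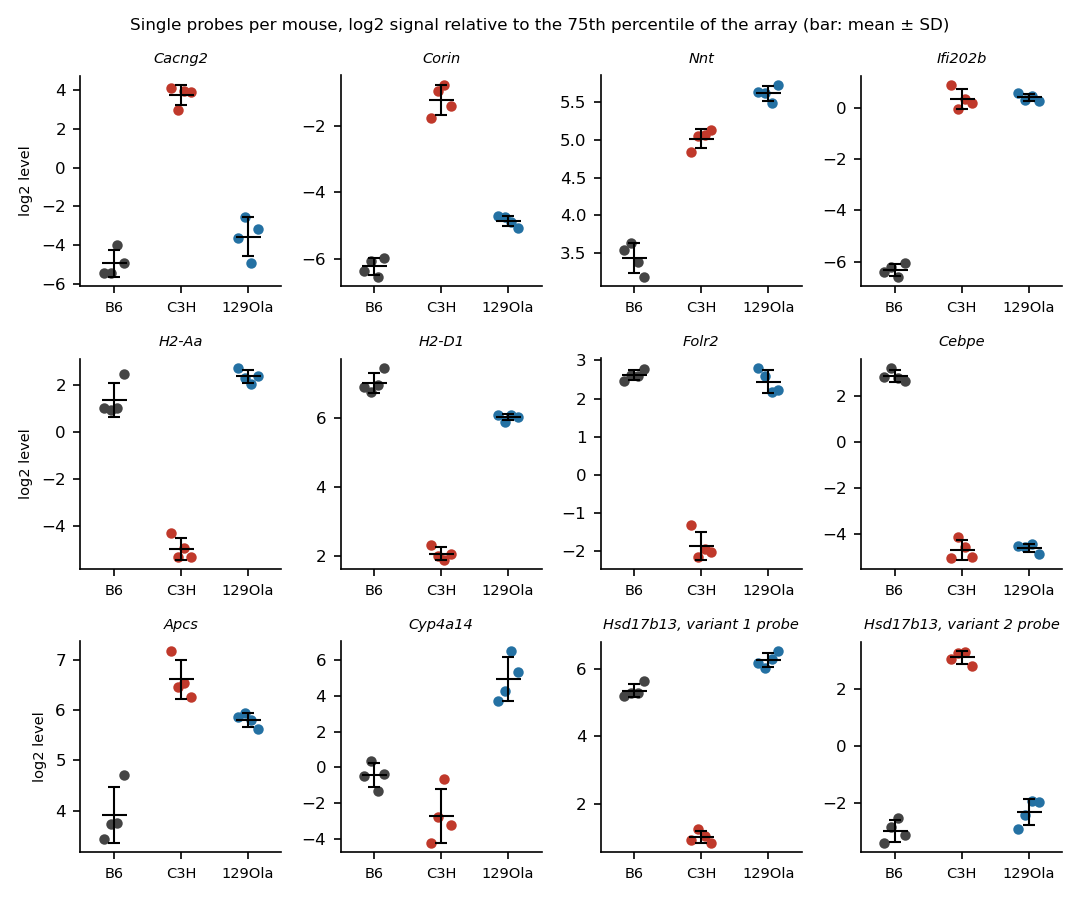
Levels of 12 probes in each mouse of B6, C3H and 129Ola (vertical axis, log2 signal relative to the 75th percentile of the array, scaled per panel; points are mice, bars the mean ± SD of 4 mice). C3H stood apart from both other strains for Cacng2, Corin, H2-Aa, H2-D1, Folr2 and the pair of Hsd17b13 probes, while B6 stood apart for Ifi202b, Cebpe and Nnt.

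The genes were then read by 33 lists of pathways, complexes and cell markers. Beside an all-gene median of 0.09, high medians, C3H minus B6, were those of adipocyte markers (0.93, from 5 measured genes), cholesterol genes (0.92), erythroid markers (0.90) and fatty acid synthesis (0.78). Low ones were those of T and NK cell markers (-1.40), skeletal muscle markers (-1.36), Kupffer cell markers (-1.08), interferon response (-1.01) and cell cycle genes (-0.57). The order followed the background correction, since with normexp these 5 were -0.43, -0.54, -0.83, -0.75 and -0.23. The all-gene median was 0.10 for 129Ola minus B6 and -0.08 for C3H minus 129Ola. Every count of members below stands beside the shares over all genes, 21.0% higher and 16.5% lower in C3H minus B6. In 129Ola minus B6 these shares were 32.9% and 19.4%, and in C3H minus 129Ola 15.7% and 23.3%. Counts near these shares do not set a list apart.

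**Figure D2:**
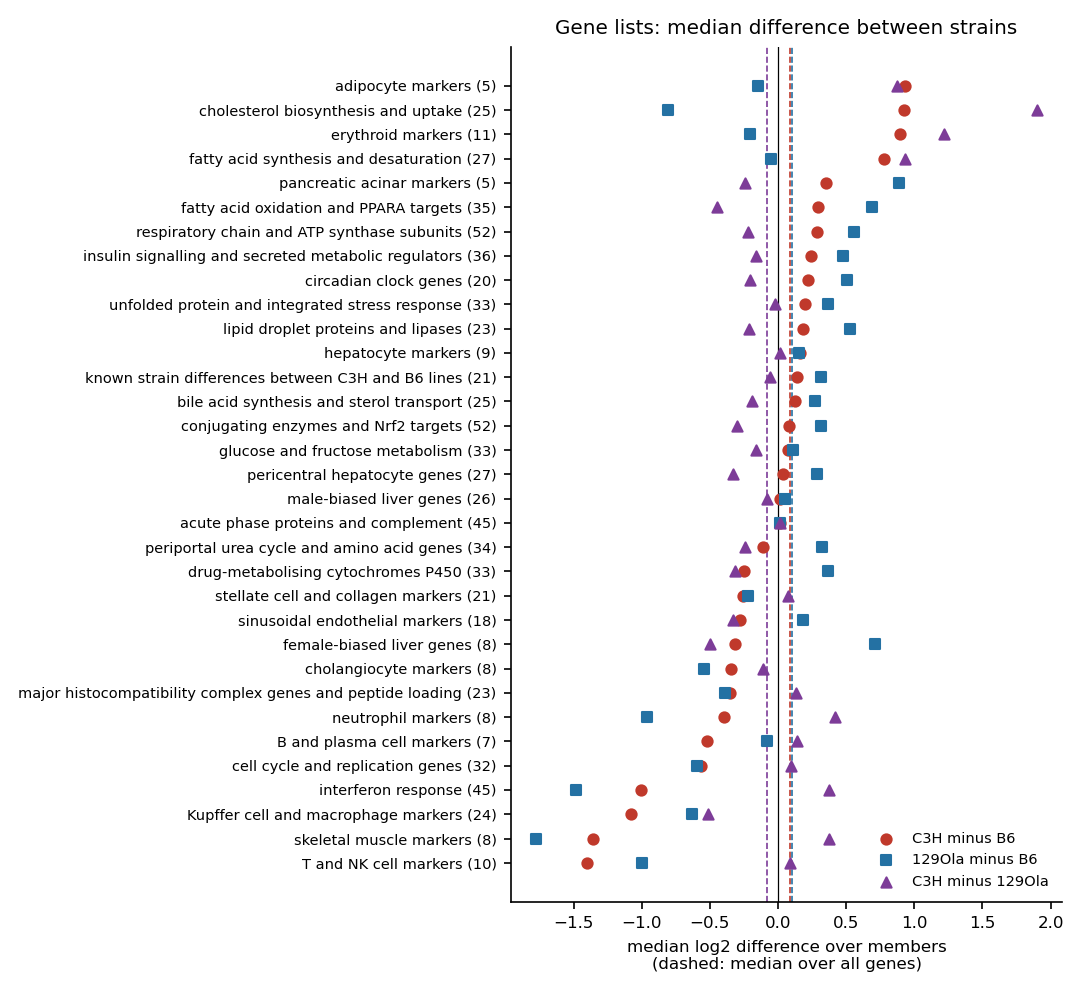
Median log2 difference over the measured members of each of the 33 lists (number of members in brackets), for C3H minus B6 (circles), 129Ola minus B6 (squares) and C3H minus 129Ola (triangles). Dashed lines mark the median over all 19853 genes. Cholesterol biosynthesis and uptake lay at 0.92 in C3H minus B6 and at -0.81 in 129Ola minus B6.

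Genes of cholesterol synthesis and uptake were higher in C3H than in B6 almost throughout: 24 of 25 members rose and 0 fell (24 beside 21.0% of all genes), with a median of 0.92. Between 129Ola and B6, 2 rose (beside 32.9% of all genes), 13 fell (beside 19.4%) and the median was -0.81. In C3H minus 129Ola, 23 of 25 rose (beside 15.7%), 0 fell and the median was 1.90. The mean level of the list was 4.33 to 4.94 in the 4 C3H mice, 3.42 to 3.89 in B6 and 2.53 to 3.10 in 129Ola, so these 3 strains did not overlap. NZO mice lay at 3.97 to 4.40, overlapping C3H, and DBA mice at 3.55 to 4.15, so 129Ola was the lowest of the 5 strains. The medians of C3H minus B6 and 129Ola minus B6 thus had opposite signs. Both C3H and 129Ola were read with the later software version but on other slides and scan days. The part of software version, slide or scan day was not tested. The count was 20 to 24 over the scalings tried, 18 to 24 without any 1 mouse and 17 with slide as a random block.

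In the steps from acetyl-CoA to squalene, Fdps, which makes farnesyl diphosphate, read 7.46, 7.70, 6.94 and 7.52 in C3H 1, 2, 3 and 5 and 5.55, 6.07, 5.30 and 5.72 in B6 9, 10, 11 and 15. Every C3H mouse lay above every B6 mouse, by 1.75 ± 0.28 (adjusted p = 0.000139). Mvd, the decarboxylase of the mevalonate branch, rose by 1.68 ± 0.33, Idi1 by 1.41 ± 0.19, Pmvk by 1.40 ± 0.22 and Mvk by 0.97 ± 0.14. Hmgcs1, the synthase that makes HMG-CoA, rose by 0.70 ± 0.23 (adjusted p = 0.0244). That call was lost without C3H 2, C3H 5 or B6 11 (adjusted p = 0.0602 to 0.0854), and under 3 of the 4 other scalings.

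From squalene onward, Sqle, the epoxidase, read 5.67, 5.97, 5.26 and 5.97 in C3H 1, 2, 3 and 5, 3.32 to 4.58 in B6 and 0.25 to 2.04 in 129Ola. It rose by 1.73 ± 0.35 from B6 to C3H and fell by 2.94 from B6 to 129Ola. Hsd17b7, a sterol reductase, rose by 1.62 ± 0.17, and its other probes gave 0.91 and 1.72. Msmo1, the sterol methyl oxidase, rose by 1.59 ± 0.19, Tm7sf2 by 1.04, Dhcr7 by 0.97, Fdft1 by 0.92, Nsdhl by 0.91, Cyp51 by 0.77 and Lss by 0.75. Ebp, a sterol isomerase, rose by 0.55 and Acat2, which condenses acetyl-CoA, by 0.72, and these were the members that 129Ola shared (0.40 and 0.78). Sc5d, a desaturase, was the member not past the threshold (0.23 ± 0.18, adjusted p = 0.336). Of the regulators, Insig1, which holds SREBP back, rose by 0.94 ± 0.28. Srebf2, which encodes SREBP2, rose by 0.73 ± 0.14 by its brighter probe and differed by 0.04 by the other, with 3 of 4 C3H arrays above background. The call of Insig1 was lost without C3H 2 or C3H 5 (adjusted p = 0.0528 for each).

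**Figure D3:**
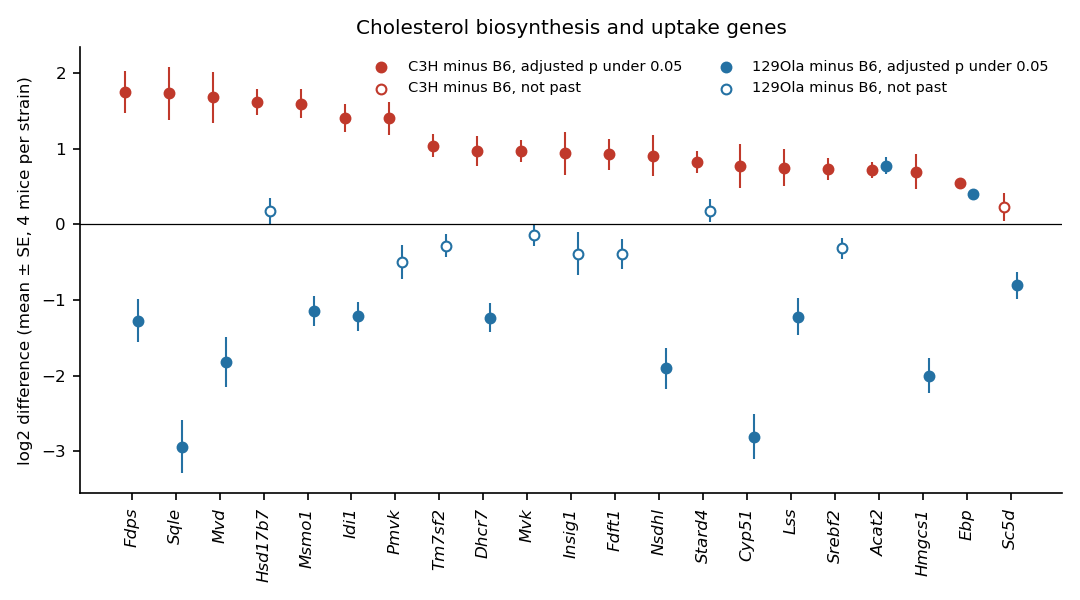
Log2 differences of 21 of the 25 cholesterol genes (vertical axis, mean ± SE, 4 mice per strain), C3H minus B6 in red and 129Ola minus B6 in blue; filled points passed an adjusted p of 0.05. Of the 21 members drawn, 20 were higher in C3H than in B6, while 11 were lower in 129Ola than in B6.

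The promoters of 3 members that rose are shown because the members moved together. RefSeq entries (GRCm38.p6) matched 17 of the 25 members, as 20 promoters. Each line gives the 250 bases before the start of the gene, in the direction of the gene, with CCAAT or its reverse ATTGG in capitals, and in Hmgcs1 also TCACCCC, a core of the sterol response element.
Hmgcs1, chr13:119690101-119690350, plus strand: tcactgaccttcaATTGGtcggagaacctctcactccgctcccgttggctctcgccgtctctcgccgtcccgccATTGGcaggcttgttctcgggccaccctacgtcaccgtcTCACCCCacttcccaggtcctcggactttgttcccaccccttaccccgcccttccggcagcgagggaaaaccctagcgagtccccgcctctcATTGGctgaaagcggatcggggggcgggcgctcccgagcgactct
Hsd17b7, chr1:169969206-169969455, minus strand: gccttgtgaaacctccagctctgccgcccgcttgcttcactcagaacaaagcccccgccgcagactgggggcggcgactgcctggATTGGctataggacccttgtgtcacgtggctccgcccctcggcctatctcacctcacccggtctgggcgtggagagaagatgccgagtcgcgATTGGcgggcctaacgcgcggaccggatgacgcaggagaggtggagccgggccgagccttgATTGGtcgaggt
Insig1, chr5:28071162-28071411, plus strand: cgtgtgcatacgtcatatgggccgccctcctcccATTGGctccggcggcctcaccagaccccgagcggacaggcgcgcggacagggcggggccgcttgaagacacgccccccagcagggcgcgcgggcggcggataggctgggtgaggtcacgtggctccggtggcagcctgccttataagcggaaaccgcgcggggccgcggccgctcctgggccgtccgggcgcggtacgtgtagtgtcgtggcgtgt
CCAAT, the letters bound by NF-Y, stood on either strand in 3 places in Hmgcs1, 3 in Hsd17b7 and 1 in Insig1. It was found in 16 of the 20 promoters of the list (80.0%) and in 11120 of all 32851 promoters (33.8%). TCACCCC or GGGGTGA was found in 2 of the 20 and in 4.31% of all. The motifs do not overlap in these windows, and a match of letters is a description and not a binding site.

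Fatty acid synthesis moved the same way in fewer members: 16 of 27 rose in C3H (beside 21.0% of all genes), 1 fell (16.5%), and the median was 0.78. In 129Ola minus B6, 5 rose and 7 fell (beside 32.9% and 19.4%; median -0.05), and in C3H minus 129Ola 18 rose and 4 fell (median 0.93). Me1, the malic enzyme that supplies NADPH, read 5.32, 5.71, 5.16 and 5.66 in C3H 1, 2, 3 and 5 and 3.29 to 3.64 in B6. It rose by 2.03 ± 0.23 with no overlap, and its other probes gave 1.02 and 2.31. Elovl5, an elongase, rose by 1.50 ± 0.25. Fasn, the fatty acid synthase, rose by 1.49 ± 0.44 (adjusted p = 0.0124) and Acly, which cuts citrate to acetyl-CoA, by 1.27 ± 0.30. Their C3H levels spread widely, at 1.90 to 3.69 and 6.61 to 8.02, with C3H 3 lowest and C3H 5 highest in both. Srebf1, which encodes SREBP1, rose by 0.87 ± 0.25. Aacs, an acetoacetyl-CoA synthetase, rose by 1.69 ± 0.50, with C3H 3 at 2.75 inside the B6 range, and without C3H 5 the adjusted p was 0.0531. Scd2, a desaturase, fell by 0.77 ± 0.21. Scd1, the main liver desaturase, differed by 0.98 ± 0.53 (adjusted p = 0.154) and Pnpla3, a lipase, by 1.45 ± 0.58 (adjusted p = 0.0577). Pnpla3 passed with normexp, without the filter on dim probes and without C3H 3 (adjusted p = 0.0213, 0.00527 and 0.00637). Scd1 passed without 129Ola 9 (adjusted p = 0.0352). With slide as a random block, 5 members of the list rose.

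Bile acid genes were mixed, with 6 of 25 higher, 4 lower (near the 21.0% and 16.5% of all genes) and a median of 0.13. Cyp7a1, the rate-limiting enzyme of bile acid synthesis, read 2.55, 2.43, 3.17 and 3.63 in C3H 1, 2, 3 and 5 and -0.13 to 1.68 in B6. It was 2.03 ± 0.75 higher (adjusted p = 0.0416), and 129Ola minus B6 was 2.30 with values up to 5.09. The call of Cyp7a1 in C3H held without B6 15 but not without any other of the 8 mice (adjusted p = 0.0526 to 0.121). Nr0b2, the repressor SHP that acts on it, fell by 1.74 ± 0.44, with every C3H mouse below the B6 range of 1.86 to 2.90. Abcc4, an exporter of bile acids, fell by 1.14 ± 0.21.

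In fatty acid oxidation, 13 of 35 members rose and 5 fell (beside 21.0% and 16.5% of all genes; median 0.29). In 129Ola minus B6 25 rose and 1 fell (beside 32.9% and 19.4%; median 0.69). Fgf21, a fasting hormone of the liver, read 0.34, 0.64, -0.04 and 1.53 in C3H 1, 2, 3 and 5 and -3.35 to -1.16 in B6, a rise of 2.89 ± 0.85 (adjusted p = 0.0133). With slide as a random block the call of Fgf21 was lost (adjusted p = 0.0996). Vnn1, a pantetheinase and PPARA target, fell by 2.51 ± 0.42, with no overlap. Cyp4a14, another PPARA target, was 2.28 ± 0.78 lower in C3H (adjusted p = 0.0288), where 2 of 4 arrays were above background, and 5.39 higher in 129Ola. C3H ran from -4.20 to -0.64, with C3H 3 inside the B6 range of -1.31 to 0.36, and the call was lost without any of 6 single mice (adjusted p = 0.053 to 0.0983). It was also lost with slide or scan day as a block (adjusted p = 0.216 and 0.0679), and with normexp Cyp4a14 differed by -0.87 (adjusted p = 0.245).

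Lipid droplet genes held 6 higher and 3 lower of 23 (near the 21.0% and 16.5% of all genes, median 0.19). Beside Hsd17b13, Pparg, the nuclear receptor of fat storage, fell by 1.81 ± 0.22, from 0.07 to 0.73 in B6 to -1.61 to -0.98 in C3H. Lpl, which releases fatty acids from lipoproteins, rose by 1.46 ± 0.34 by its brighter probe and by 1.67 in 129Ola; its other probe gave 0.30. Among 33 genes of glucose metabolism, 4 rose and 7 fell (beside 21.0% and 16.5% of all genes, median 0.07). Ppp1r3b, which targets a phosphatase to glycogen, fell by 1.38 ± 0.17 and by 1.22 in 129Ola. Hk3, a hexokinase of myeloid cells, fell by 1.64 ± 0.28.

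Of 36 genes of insulin signalling and secreted regulators, 13 rose and 3 fell (beside 21.0% and 16.5% of all genes, median 0.24). In 129Ola minus B6 15 rose and 5 fell (beside 32.9% and 19.4%). Socs2, a feedback inhibitor of growth hormone signalling, was 2.33 ± 0.77 higher (adjusted p = 0.025), with B6 spread from -1.28 to 2.48 and C3H at 2.31 to 3.14. The call was lost without C3H 1, C3H 5, B6 10 or B6 15 (adjusted p = 0.0513 to 0.0943). Gdf15, a stress-induced hormone, fell by 1.55 ± 0.45, a call lost with slide as a random block (adjusted p = 0.116). Igfbp1, which insulin lowers in liver, was 1.32 ± 0.49 lower (adjusted p = 0.0411), with B6 at 6.26 to 7.56 and C3H at 5.05 to 5.87. That call was lost without any of 6 single mice (adjusted p = 0.0509 to 0.121).

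Interferon-response genes were lower in C3H: 29 of 45 members fell (beside 16.5% of all genes), 2 rose, and the median was -1.01. From B6 to 129Ola 36 fell and 3 rose (median -1.48), so B6 was the highest of the 3 strains and 129Ola the lowest. In C3H minus 129Ola, 21 rose and 1 fell (median 0.37). The mean level of the list was 1.25 to 1.66 in C3H, 2.14 to 2.61 in B6 and 0.69 to 1.16 in 129Ola. Both strains below B6 were read with the later software version, and the part of that version was not tested. Irf7, the factor that amplifies the response, read 0.99, 0.49, 0.43 and -0.13 in C3H 1, 2, 3 and 5 and 2.34 to 2.70 in B6, a fall of 2.12 ± 0.23 (adjusted p = 2.08e-06). Ifit2, an antiviral protein, fell by 2.24 ± 0.26 and by 2.12 in 129Ola, with 2 of 4 C3H and 1 of 4 129Ola arrays above background. Gbp2, a guanylate-binding protein, fell by 1.84 ± 0.22, and by 1.59 without B6 15. Igtp, an immunity-related GTPase, rose by 0.83 ± 0.26, a call lost without C3H 1 or B6 10 (adjusted p = 0.0536 and 0.0608). Stat2, a signal transducer of the pathway, rose by 0.62 ± 0.12 and by 0.51 in 129Ola.

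In the major histocompatibility complex, 13 of 23 members fell and 3 rose (beside 16.5% and 21.0% of all genes, median -0.35), or 11 and 3 without B6 15. In 129Ola minus B6 12 fell and 4 rose. H2-Ab1, the beta chain of I-A, read 2.38, 1.39, 1.94 and 1.76 in C3H 1, 2, 3 and 5 and 4.20, 3.98, 4.10 and 5.43 in B6 9, 10, 11 and 15. It fell by 2.56 ± 0.30 with B6 15 and by 2.23 ± 0.25 without it, and its other probe gave -2.21. 129Ola minus B6 was 1.16. H2-Eb1, the beta chain of I-E, fell by 1.68 ± 0.28 and by 1.36 ± 0.22 without B6 15, and 129Ola minus B6 was 0.74. Cd74, the invariant chain, which is not in the complex, fell by 0.90 ± 0.28 (adjusted p = 0.0164). Without B6 15 Cd74 differed by -0.58 (adjusted p = 0.0569), and H2-DMb1, a peptide exchange chain, by -0.53 (adjusted p = 0.0838), so these calls rest on that mouse. For Cd74 leaving out C3H 2 also ended the call (adjusted p = 0.0549). H2-Ea, the alpha chain of I-E, was not well above background on any C3H, B6 or 129Ola array and on all NZO and DBA arrays.

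Markers of Kupffer cells and other macrophages fell in 20 of 24 members (beside 16.5% of all genes) and rose in 2, with a median of -1.08. In 129Ola minus B6, 13 fell (beside 19.4%) and 1 rose (median -0.63), and in C3H minus 129Ola 12 fell and 2 rose (median -0.52). The mean level of the list was 0.74 to 1.49 in C3H, 1.95 to 2.41 in B6 and 1.05 to 1.67 in 129Ola, and C3H 1 was the highest C3H mouse. Adgre1, the F4/80 antigen, read 1.32, 0.44, 0.69 and 0.46 in C3H 1, 2, 3 and 5 and 2.16 to 2.65 in B6, a fall of 1.65 ± 0.16, while 129Ola minus B6 was -0.21 (adjusted p = 0.299). Clec4f, a lectin of Kupffer cells, fell by 0.80 ± 0.14. Cd52 fell by 2.07 ± 0.21 and Lyz2, the lysozyme of macrophages, by 1.84 ± 0.21. Cx3cr1, a chemokine receptor of monocytes, rose by 1.69 ± 0.33 on its brightest probe and by 1.46 and 2.35 on the others. The last of these had 2 of 4 B6 arrays above background. The brightest fell by 1.38 in 129Ola, with 2 of 4 arrays above background. Slc40a1, the iron exporter ferroportin, rose by 0.72 ± 0.17 and by 1.53 in 129Ola. These falls stood beside those of the interferon genes and of class II, and their part in either was not tested.

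Markers of T and NK cells fell in 7 of 10 members (beside 16.5% of all genes) and rose in 1 (beside 21.0%). The C3H minus B6 counts of the cell types that follow stand beside the same shares. The median was -1.40, or -0.43 with normexp, with a list mean of -1.19 to -0.43 in C3H and 0.03 to 0.53 in B6. From B6 to 129Ola 8 of them fell and 0 rose. Cd2, an adhesion receptor of T cells, was at least 3.05-fold lower in C3H, with no C3H or 129Ola array above background. Il2rb, an interleukin receptor chain, fell by 1.71 ± 0.34, with 1 of 4 C3H arrays above background, and Ccl5, a chemokine of these cells, fell by 1.64 ± 0.24 and by 1.47 without B6 15. Of 8 neutrophil markers 2 fell and 0 rose, namely Cebpe and Elane, the neutrophil elastase, which fell by 0.50. Of 7 B cell markers 2 fell and 2 rose. Cd22, an inhibitory receptor of B cells, rose by 0.92 ± 0.13. Jchain, which joins secreted antibodies, rose by 1.79 ± 0.29. Cd79b, a chain of the B cell receptor, fell by 1.12 ± 0.20, and Ms4a1, the CD20 antigen, was at least 1.92-fold lower in C3H. Sinusoidal endothelial markers held 7 lower and 1 higher of 18, with Stab2, a scavenger receptor, 0.90 ± 0.13 higher and Dnase1l3, a secreted nuclease, down, with a fall of 1.21 ± 0.15. Stab2 read 5.76 to 6.17 in 129Ola, 5.45 to 5.84 in C3H and 4.59 to 4.83 in B6, so 129Ola shared its rise. Dnase1l3 read 0.94 to 1.30 in 129Ola, 0.33 to 0.62 in C3H and 1.29 to 1.89 in B6. Stellate cell markers held 5 lower and 3 higher of 21. Lrat, which stores retinol, fell by 0.98 ± 0.22, while Rgs5 and Acta2, genes of contractile cells, rose by 1.39 ± 0.17 and 1.00 ± 0.27. Rgs5 read 2.36 to 2.60 in 129Ola, 2.42 to 2.58 in C3H and 0.83 to 1.44 in B6, so 129Ola shared its rise. Acta2 read 0.10 to 1.48 in 129Ola and 0.40 to 0.60 in B6. For Lrat, 129Ola read -0.86 to -0.57, below all B6 mice at -0.14 to 0.42. With slide as a random block the calls of Lrat and Acta2 were lost (adjusted p = 0.0576 and 0.0989). Of 8 cholangiocyte markers 3 fell, and the differences were -2.64 ± 0.35 for Sox9, a transcription factor of bile ducts read above background on 1 of 4 C3H arrays, -1.55 ± 0.17 for Spp1, osteopontin, and -0.60 ± 0.16 for Prom1.

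Erythroid markers were higher in C3H in 7 of 11 members (beside 21.0% of all genes) and lower in 1 (beside 16.5%), with a median of 0.90. The list mean was 3.74 to 4.04 in C3H, 2.83 to 3.17 in B6 and 2.77 to 3.23 in 129Ola. Hba-a1, an alpha globin, rose by 1.40 ± 0.35 and Hbb-bt, a beta globin, by 1.26 ± 0.37. Hbb-b2 rose by 3.14 ± 0.36 and by 1.57 in 129Ola; the beta globin locus is known to differ in haplotype between B6 and C3H. Of 5 measured adipocyte markers 4 rose and 0 fell, but the defining genes Adipoq, Lep, Plin1, Retn, Cidea and Ucp1 did not pass the background filter. Adrb3, the adrenergic receptor of adipocytes, rose by 1.76 ± 0.22 and fell by 1.82 in 129Ola, and its other probe rose by 2.27 and was at least 2.68-fold lower in 129Ola. Cfd, the complement factor adipsin, rose by 2.17 ± 0.64, with C3H spread from -2.88 to -0.37. Cidec, a lipid droplet protein, rose by 0.93 ± 0.24. Of 8 skeletal muscle markers 0 passed in either direction (limma; 1 higher and 1 lower below an unadjusted p of 0.05), with B6 10 highest at a list mean of 0.36. Of 5 acinar markers 2 rose (Cel by 1.48 and Cela1 by 1.11) and 1 was lower, Cela2a, by at least 1.41-fold with no C3H array above background. Levels of the blood and adipocyte lists are thus measured beside the sterol and fatty acid results, and their part in them was not tested.

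**Figure D4:**
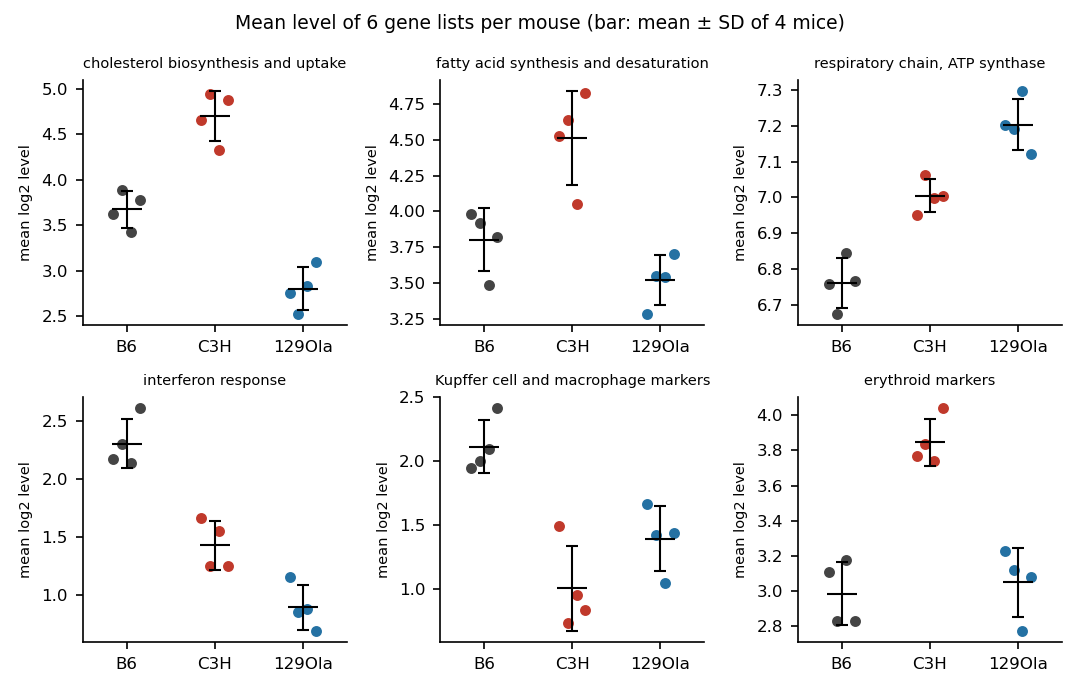
Mean log2 level of 6 lists in each mouse of B6, C3H and 129Ola (points are mice, bars the mean ± SD of 4 mice; vertical axes scaled per panel). The C3H mice lay at 4.33 to 4.94 for cholesterol genes, above all B6 mice at 3.42 to 3.89, and below all B6 mice for interferon genes and macrophage markers.

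Nuclear genes of the respiratory chain and ATP synthase rose by small amounts in 30 of 52 members (beside 21.0% of all genes), and 0 fell (median 0.29). In 129Ola minus B6, 38 rose (beside 32.9%) and 2 fell (median 0.56), so this shift was shared by the strains of the later software version. Under the 4 other scalings 23 to 25 members rose and 4 to 5 fell in C3H minus B6. Ndufb8, a complex I subunit, rose by 0.88 ± 0.09 and by 1.03 in 129Ola. Ndufa2 rose by 0.56 ± 0.09 and Cox7a2l, which joins complexes into supercomplexes, by 0.54 ± 0.10, against 0.18 and 0.34 on its other probes. The 12 mitochondrially encoded transcripts went the other way, with 9 lower and 1 higher. ND4L fell by 0.75 ± 0.10, ND1 by 0.73 ± 0.11 and ND5 by 0.63 ± 0.11, while ND6, the one encoded on the other strand of the molecule, rose by 0.86 ± 0.23. In 129Ola minus B6, 5 of the 12 fell and 0 rose, and the ND1 difference was -0.22 (adjusted p = 0.0941).

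Drug metabolism differed gene by gene. Of 33 cytochromes P450, 9 rose and 12 fell (beside 21.0% and 16.5% of all genes, median -0.25). In 129Ola minus B6 18 rose and 4 fell (beside 32.9% and 19.4%, median 0.37). Cyp2c23, an epoxygenase of arachidonic acid, read 2.71 to 3.25 in C3H and 5.95 to 6.27 in B6, a fall of 3.12 ± 0.19, and was 0.57 higher in 129Ola. Cyp3a13 fell by 1.89 ± 0.16, Cyp3a16 by 2.28 ± 0.46, Cyp2c37 by 1.41 ± 0.22 and Cyp2c50 by 1.13 ± 0.17. In 129Ola, Cyp2c37 also fell, by 1.04 on its brightest probe and by 0.75 on the other, while Cyp3a13 was 0.44 higher on its brightest. Cyp3a16 read 1.61 to 3.39 in 129Ola, below all B6 mice at 3.45 to 4.21. Cyp2c50 read 7.35 to 8.39 in 129Ola, overlapping B6 at 7.19 to 7.53. Cyp3a44, known from female liver, was at least 6.49-fold higher in C3H, with no B6 or 129Ola array above background; with the normexp background correction the log2 difference was 0.69 (adjusted p = 0.184), which is below that bound. Members of these families are close in sequence, so a probe may read more than 1 of them. Among 52 conjugating enzymes and Nrf2 targets 10 rose and 11 fell, near the 21.0% and 16.5% of all genes. Gsta2, a glutathione transferase, read -3.00 to -1.91 in C3H, 0.85 to 1.34 in B6 and 2.83 to 3.44 in 129Ola, a fall of 3.50 ± 0.33 in C3H, where 3 of 4 arrays were above background. Ugt3a1, a glycosyltransferase, fell by 1.78 ± 0.22 and by 1.99 in 129Ola. Ces1e, a carboxylesterase, rose by 1.42 ± 0.16 and by 1.86 in 129Ola.

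Of 26 genes known as male-biased 6 rose and 6 fell, and of 8 measured female-biased ones 2 rose and 2 fell. These and the next 3 list counts stand beside 21.0% higher and 16.5% lower of all genes. Cyp4a12b and Cyp4a12a, androgen-dependent fatty acid hydroxylases, rose by 1.41 ± 0.16 and 1.29 ± 0.16 and by 1.91 and 1.75 in 129Ola. Ntrk2, a neurotrophin receptor of the female-biased list, rose by 2.43 ± 0.41 and by 2.87 in 129Ola. Of 27 pericentral genes 4 rose and 6 fell, among them Slc1a2, a glutamate transporter, which fell by 1.54 ± 0.12 on its brightest probe. Of 34 periportal genes 6 rose and 6 fell. Tdo2, which degrades tryptophan, fell by 1.22 ± 0.17. Among 20 clock genes 2 rose and 1 fell. Noct, a rhythmic phosphatase, rose by 0.89 ± 0.11 by its brighter probe and differed by 0.11 by the other. Per1, a clock repressor, fell by 1.24 ± 0.45 (adjusted p = 0.039), a call lost without any of 7 single mice (adjusted p = 0.0534 to 0.122), and was 1.38 higher in 129Ola. Csnk1e, a clock kinase, had probes at 0.47 and 0.21 and another that was at least 4.86-fold lower in C3H, and the call of the brightest was lost without B6 15 (adjusted p = 0.0514).

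In the unfolded protein response 8 of 33 members rose and 3 fell (beside 21.0% and 16.5% of all genes). Pdia4, a folding enzyme, rose by 1.19 ± 0.16, and Dnajc3, which restrains the kinase PERK, fell by 1.19 ± 0.14. Atf4, the transcription factor of the integrated stress response, rose by 0.88 ± 0.22 on its brighter probe and differed by -0.07 on the other. Of 45 acute phase and complement genes 8 rose and 3 fell (beside 21.0% and 16.5%). C4b, a complement component encoded in the histocompatibility complex, read 6.75 to 7.41 in C3H and 8.88 to 9.27 in B6, a fall of 1.85 ± 0.13, and 129Ola minus B6 was -0.27 (adjusted p = 0.0944). Of 32 cell cycle genes 12 fell and 2 rose (beside 16.5% and 21.0% of all genes, median -0.57). In 129Ola minus B6 18 fell (beside 19.4%) and 2 rose (beside 32.9%). The falls named here were in dim genes and are not ranked. Top2a, a topoisomerase, was at least 1.37-fold lower and Nusap1, a spindle protein, at least 1.92-fold, with no C3H array above background. Prc1, a protein of cytokinesis, fell by 1.60 ± 0.51 with 2 of 4 C3H arrays above background, and without C3H 2 or B6 9 its adjusted p was 0.0834 and 0.0512. E2f8, a factor of polyploid hepatocytes, rose by 1.43 ± 0.43, a call lost without B6 10 or B6 15 (adjusted p = 0.0542 and 0.0591).

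The last list held 28 genes known to differ between C3H and B6 lines, of which 21 were measured; 8 rose and 5 fell. Being chosen for such differences, the list is no independent evidence of direction. Nnt, the mitochondrial transhydrogenase that the B6/J substrain is known to carry with a deletion, read 4.83, 5.05, 5.07 and 5.13 in C3H 1, 2, 3 and 5 and 3.18 to 3.63 in B6. It rose by 1.59 ± 0.12 and by 2.19 in 129Ola, and its other probes were at least 5.31-fold and 0.49 (log2) higher in C3H. Apcs, the serum amyloid P component, read 6.27 to 7.17 in C3H, 3.44 to 4.71 in B6 and 5.62 to 5.94 in 129Ola, a rise of 2.69 ± 0.23. Pcp4l1, a calmodulin-binding protein, rose by 2.61 ± 0.22 and by 2.62 in 129Ola. Both lie on distal chromosome 1, as Ifi202b does, with mm9 probe positions chr1:174824959-174825018 for Apcs and chr1:173103423-173103482 for Pcp4l1. Mndal, an interferon-induced gene of that stretch, differed by -1.03 ± 0.41 (adjusted p = 0.0596) and passed under 4 alternatives (adjusted p = 2.77e-05 to 0.0493). Ahr, the aryl hydrocarbon receptor, rose by 0.81 ± 0.22 on its brighter probe and by 0.83 in 129Ola, and no C3H array read the other probe above background. Cyp7b1, an oxysterol hydroxylase, rose by 0.76 ± 0.26 (adjusted p = 0.0293), a call lost without any of 4 single mice (adjusted p = 0.0553 to 0.0984).

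Sp110, a gene of the sst1 locus known from C3HeB/FeJ mice, was bright in every mouse, at 8.90 to 9.20 in C3H and 9.31 to 9.77 in B6, and fell by 0.50 ± 0.13. Its other probes gave -0.67 and -0.13. Its neighbour Sp140 differed by 0.00 ± 0.12 by its brightest probe and by -0.64 by another with 1 of 4 C3H arrays above background, and no C3H array read the last above background. Tbc1d1, a Rab regulator, fell by 0.74 ± 0.10. Abcc6, a transporter linked to calcification, fell by 0.58 ± 0.13, and its other probe gave -0.08. Mx1, an antiviral GTPase that is defective in many inbred strains, fell by 1.08 ± 0.30, and C3ar1, a complement receptor, was at least 2.17-fold lower. Values of Hc, complement component 5 (0.05), Apoa2 (0.14), Insig2 (0.52), Tlr4 (-0.44), Abcb4 (0.13) and Gbp2b (0.29) did not pass the threshold (adjusted p = 0.106 to 0.752). Pde6b, Alox5, Lefty1, Zfp69, Naip1 and H2-Ea did not pass the background filter and were not tested.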

How the data were processed

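RNA of whole liver from male mice was labelled with Cy3 and read on 1-colour Agilent 60-base arrays, 1 per mouse, 4 per strain and 20 in all. The deposited scanner intensity values are background-subtracted and detrended by Agilent Feature Extraction, version 11.5.1.1 for C3H and 129Ola and 11.0.1.1 for B6, per the file headers. The submitters' processing notes name version 9.1 instead.

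From these, spots marked as outliers were left out, spots of a probe were averaged, and log2 intensity minus the array's own 75th percentile was taken. Flags for signal above background came from the deposited files. All 5 strains entered 1 limma fit (version 3.58.1, R 4.3.3) with Benjamini-Hochberg adjustment over all genes. Groups follow the strain labels, and the error behind each p-value is the variation among mice within strains. The number of arrays limits the precision. On simulated data with 200 changed genes among 19853, the C3H minus B6 test recovered 63% at a log2 difference of 1 and 92% at 2, with 3 false calls. The simulated noise was independent between arrays, without any effect of slide, scan day or software version. Far fewer genes were changed than the real comparison called. These rates hold for that setting alone and are no error rates of the real comparison.

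Of 29780 probes with a RefSeq accession, 28011 were matched to a current symbol. The members and lists were chosen with earlier results of these data known. Genes named are the 8 largest differences in each direction that set C3H apart from B6 and 129Ola, the 4 largest in each direction shared with 129Ola, the up to 3 largest in each list, every measured gene of the strain list, and further list members chosen for their role; a few genes so chosen count in their lists and are not reported here one by one. Alternatives changed the scaling, background correction, filter, probe rule, strains in the fit, slide or scan day as a random block, and left out each mouse. The authors' deposited value table of 37892 probes, whose intensity values follow 1 common distribution in all 20 columns and whose offset and background steps are unknown, was an alternative.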

Additional observations from a re-analysis of the deposited data

Results flagged for a closer look

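In each group of 4 mice a value was marked when its gap to the nearest of the others passed the critical value of Dixon's test, which chance alone gives in about 5% of groups; 22 of 358 groups were marked. B6 15 was marked in 11 of the 22. It was the highest B6 mouse for H2-Aa (2.48), H2-Ab1 (5.43), H2-Eb1 (5.09), Cd74 (4.54), Gbp2 (1.60), C4b (9.27), Il2rb (-1.27) and Ccl5 (2.22) and for the mean of the histocompatibility list (3.97). It was the lowest for Hbb-b2 (3.44) and Cela1 (-2.37). These are log2 levels, and what set this mouse apart was not tested.

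Among the other B6 mice, B6 9 was the highest for Poln (-3.69) and Cyp4a12a (5.13), and B6 10 the lowest for Cx3cr1 (-1.63). In C3H, mouse 1 was the lowest for Cyp2c37 (3.62) and the highest for Clec4f (5.06) and for the mean of the sinusoidal endothelial markers (2.05). C3H 2 was the lowest for Cacng2 (2.95), C3H 3 the highest for Elobl (0.35) and Zfp874a (-3.90), and C3H 5 the lowest for Abcc6 (4.26) and the highest for the mean of the lipid droplet list (1.94). Zfp874a was not well above background in C3H, so its order there has no meaning.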

How the results depend on the processing

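No paired analysis was possible, since the strains are different mice and an animal number shared between strains names no common animal. Of 146 genes named, 103 could be fitted under all 22 alternatives and 64 of these kept direction and side of the threshold; of the other 43, which had at least 20 alternatives, 32 did so under each that was run. Of the 146, 37 lost the call with slide as a random block, 15 without 1 mouse and 5 under a scaling or background alternative. With slide as a random block C3H minus B6 gave 2119 higher and 1651 lower, C3H minus 129Ola 1226 and 1669, and fatty acid synthesis 5 higher. Scan day as a block gave 1928 and 2856 in C3H minus 129Ola. Without the filter on dim probes C3H minus B6 had 9769 higher and 129Ola minus B6 13306. With only genes detected in all 3 strains, 129Ola minus B6 had 2177 lower and C3H minus 129Ola 1647 higher. With the percentile over commonly detected probes, 129Ola minus B6 had 3437 higher and 6355 lower, and C3H minus 129Ola 2538 lower. Leaving out 1 mouse gave 3422 to 4266 higher and 2789 to 3410 lower in C3H minus B6, 5981 to 6448 and 3414 to 3794 in 129Ola minus B6, and 2469 to 3070 and 3749 to 4548 in C3H minus 129Ola. It gave 18 to 24 cholesterol and 12 to 17 fatty acid synthesis genes higher, 18 to 21 macrophage and 26 to 31 interferon genes lower, and a difference of -9.92 to -7.53 points in probes above background (exact permutation p = 0.0571, the smallest possible with 3 against 4).

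The mean over probes turned Hsd17b13 to 0.87 (adjusted p = 0.00219) and Csnk1e to -0.74, since their probes oppose. Values near 0 changed sign. Sp140 was -0.013 with quantile normalization, -0.10 with commonly detected probes, -0.074 in the authors' table, -0.0041 and -0.0011 with slide and scan day as blocks, -0.42 as a mean over probes, and -0.080 to 0.099 without 1 mouse. Hc was -0.025, -0.060 and -0.012 under the first 3 of these, -0.026 with normexp, and -0.031 to 0.11 without 1 mouse. Abcb4 was -0.034 with quantile normalization, -0.064 with normexp, -0.019 in the authors' table and -0.0097 as a mean over probes. What turned the signs was not tested. The calls lost with slide as a block include Cyp7a1, Nr0b2, Fgf21, Fasn, Acly, Srebf1, Gdf15, Lrat, Acta2, Hba-a1, Sp110, Mx1 and Cfd. Weak signals near background limit what the dim genes show.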
